A study of Mus musculus with 6 samples.

Results

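The 9 genes described here encode the enzymes that make and break down muscle glycogen and the proteins that switch these enzymes: Gyg, Gys1 and Gbe1 for synthesis, Pygm and Pygb for breakdown, Phka1, Phkb and Phkg1 of phosphorylase kinase, and the phosphatase subunit Ppp1r3a. They were chosen by name from the 27131 genes of the table, each name matched 1 row, and all 9 passed the filter on low counts. Gene positions are those of GENCODE M21 on GRCm38 (mm10). The data are mRNA libraries of the levator ani/bulbocavernosus (LA/BC), perineal muscles that depend on androgen in male mice, 1 library per mouse. The 3 animals labelled 113Q came from a knock-in model of spinal and bulbar muscular atrophy (SBMA), a disease of motor neurons and muscle that is caused by a longer glutamine stretch in the androgen receptor, and the 3 others were wild-type (WT). All 6 mice were fed standard chow and were 14 weeks old, and the labels give no sex, no strain, no further description of the allele and no other treatment. The comparison asks which muscle transcripts are higher or lower with the 113Q allele.

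Glycogen is the glucose store of the muscle fibre. Glycogenin starts each particle, glycogen synthase lengthens its chains and the branching enzyme adds branch points, while glycogen phosphorylase releases glucose phosphate from the chain ends. Phosphorylase kinase, a complex of alpha, beta, gamma and calmodulin (delta) subunits that responds to calcium and to protein kinase A, turns phosphorylase on. Protein phosphatase 1, held at the particle by targeting subunits such as Ppp1r3a, turns phosphorylase off and synthase on. Inherited loss of PYGM causes McArdle disease in humans, with painful cramps on exercise.

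The libraries held between 67897870 and 73873481 estimated counts in 113Q and between 43581087 and 68983982 in WT, and the 9 genes had between 380 and 745371 counts in a library. Levels are given as CPM, counts brought to a common library size with TMM factors, which were 1.26 to 1.32 in 113Q and 0.768 to 0.794 in WT. The 20 most abundant genes took 14.1% to 15.7% of the counts in 113Q libraries and 30.8% to 32.7% in WT libraries. With library totals in place of TMM factors, the median log2 fold change of all tested genes moved up by 0.72, so each change below is relative to the rest of the transcriptome, and the RNA content of the whole muscle was not measured. All 8 skeletal muscle identity genes were above 1 CPM in every library. Their summed level was 29378 to 37076 CPM in 113Q and 105950 to 121010 CPM in WT. In bulk muscle, fewer cells of a type and less RNA per cell cannot be told apart.

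In 113Q muscle, 7 of the 9 genes fell, 1 rose (Pygb) and 1 did not pass the test (Gbe1), at an adjusted p below 0.05 (edgeR quasi-likelihood test, Benjamini-Hochberg over all 16960 tested genes); with library totals alone 3 fell (Pygm, Phkg1 and Ppp1r3a) and 3 rose (Pygb, Gyg and Gbe1). Over all tested genes 34.6% were called, 18.1% as lower and 16.5% as higher. With library totals alone 93.9% of all calls were higher, against 47.6% with TMM factors. The median log2 fold change of the 9 genes was -0.84, against 0.01 for all tested genes. It was -0.12 with library totals alone, where the median of all genes was 0.73. The levels of 113Q and WT mice did not overlap for 8 of the 9 genes, and did not overlap for 49.9% of all tested genes. Together the 9 genes took 0.797%, 0.912% and 0.886% of the unscaled counts in the 113Q libraries, and 1.19%, 1.36% and 1.22% in the WT libraries.

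**Figure D1:**
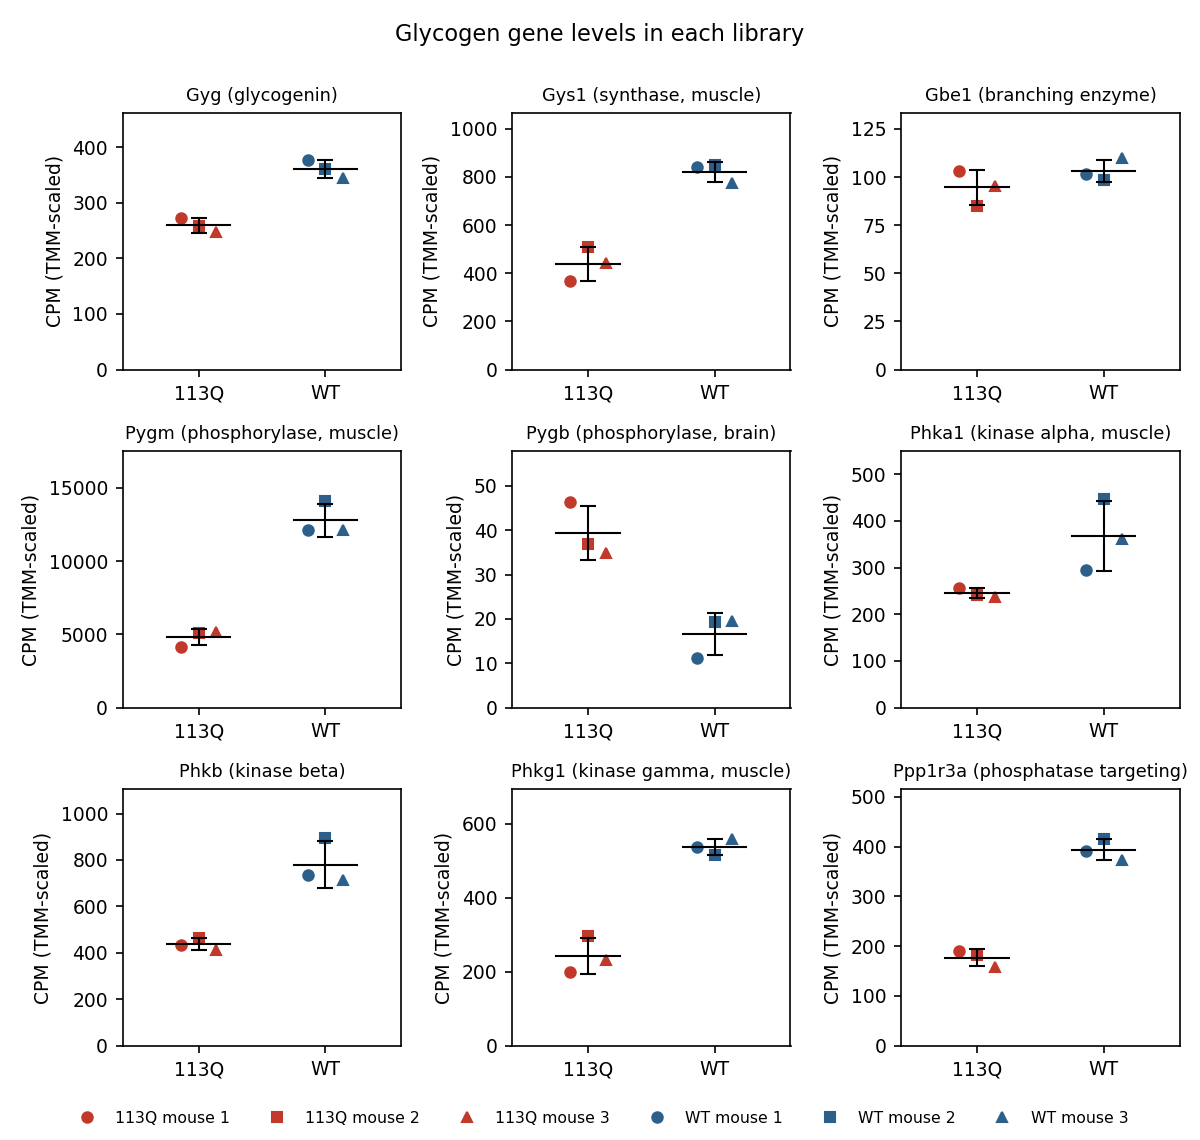
TMM-scaled CPM (y axis, linear from 0) of each gene in the 3 113Q and 3 WT libraries, with the mean and SD of each group as black lines and 1 symbol per mouse. Pygb is higher in every 113Q library, Gbe1 overlaps between the groups, and the other 7 genes are lower in every 113Q library on this scaling; Gyg and Phka1 have positive fold changes instead with library totals alone (log2 0.24 and 0.14).

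Levels of different genes are set side by side per kilobase of the longest coding transcript. In 113Q the order was Pygm at 1675 ± 195 CPM per kilobase, Gyg at 134.9 ± 6.66, Gys1 at 119.5 ± 19.0, Phkg1 at 102.3 ± 20.9, Phkb at 81.6 ± 4.86, Phka1 at 40.1 ± 1.73, Gbe1 at 28.6 ± 2.73, Ppp1r3a at 25.4 ± 2.38 and Pygb at 10.1 ± 1.57 (SD, n = 3). In WT it was Pygm at 4441 CPM per kilobase, Phkg1 at 226.3 ± 9.09, Gys1 at 223.3 ± 11.1, Gyg at 187.9 ± 8.40, Phkb at 145.8 ± 18.7, Phka1 at 60.1 ± 12.4, Ppp1r3a at 56.6 ± 3.04, Gbe1 at 31.3 ± 1.74 and Pygb at 4.27 ± 1.21 (SD, n = 3; the 3 Pygm values were 4207, 4894 and 4223). Gyg stood above Gys1 and Phkg1 in 113Q and below both in WT. The values of neighbours in the 113Q order overlapped between Gyg and Gys1, Gys1 and Phkg1, Phkg1 and Phkb, and Gbe1 and Ppp1r3a. Those in the WT order overlapped between Phkg1 and Gys1 and between Phka1 and Ppp1r3a.

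Pygm (chr19:6384399-6398459, plus strand), the muscle phosphorylase, was by far the most abundant of the 9 transcripts and fell the most. It was at 4169, 5117 and 5160 CPM in 113Q mice, against 12091, 14066 and 12137 CPM in WT mice. Every 113Q mouse was below every WT mouse, and the lowest 113Q value was in mouse 1. The means were 4815 ± 560 CPM in 113Q and 12765 ± 1127 CPM in WT (SD, n = 3 each), 2.65 times lower in 113Q, with a log2 fold change of -1.41 ± 0.12 (SE; edgeR adjusted p = 9.26e-05). It was still lower with library totals alone, by 0.69 on the log2 scale (value -0.69, edgeR adjusted p = 0.000438). As an unscaled share, Pygm took 0.550%, 0.649% and 0.651% of the counts in 113Q libraries and 0.937%, 1.08% and 0.964% in WT libraries. Its rank among all genes by count was 10, 9 and 9 in 113Q libraries and 15, 12 and 13 in WT libraries, so it stood higher in the order of transcripts where its share was lower.

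Pygb (chr2:150786735-150831758, plus strand), the phosphorylase form named for brain and also the form of fetal muscle, moved the other way. It was at 46.4, 36.9 and 34.98 CPM in 113Q mice, against 11.3, 19.2 and 19.6 CPM in WT mice. The groups did not overlap, mouse 1 was the highest of the 113Q mice, and mouse 1 was the lowest of the WT mice. Its mean was 2.35 times higher in 113Q, with a log2 fold change of 1.23 ± 0.23 (SE; edgeR adjusted p = 0.00587), and it was 1.96 with library totals alone. The call was kept without any 1 mouse (edgeR adjusted p up to 0.0205). It was lost in the libraries with Epcam under 1 CPM, which are 113Q mouse 1 and WT mice 1 and 3 (log2 fold change 1.58, edgeR adjusted p = 0.0778); the lone 113Q mouse is assumed there to vary like the WT mice. Pygl, the liver phosphorylase, was at 9.95, 7.93 and 7.02 CPM in 113Q mice and at 4.12, 3.02 and 6.37 CPM in WT mice. It also rose, with a log2 fold change of 0.88 ± 0.28 (SE; edgeR adjusted p = 0.0399), a call that was lost when any mouse but WT mouse 3 was left out (edgeR adjusted p 0.0592 to 0.126) and in voom (adjusted p = 0.0643).

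Smooth muscle markers moved with Pygb. Acta2, the smooth muscle actin, was at 867, 566 and 425 CPM in 113Q mice and at 46.4, 126 and 184 CPM in WT mice, and the order of the 6 libraries by Acta2 was their order by Pygb. The summed level of 4 smooth muscle markers was 1012 to 2371 CPM in 113Q and 122 to 551 CPM in WT, with all 4 above 1 CPM in every library; 1 of the 4 rose in edgeR and all 4 in DESeq2 and voom. The part of smooth muscle in the Pygb result was not tested. The epithelial marker Epcam stood apart in 113Q mice 2 and 3 and in WT mouse 2, at 8.29, 10.2 and 3.83 CPM, against 0.0385 CPM or less in the other libraries. The summed level of the 5 epithelial markers was 1.21 to 75.6 CPM in 113Q and 1.95 to 41.7 CPM in WT, and 0 of 5 passed in edgeR, DESeq2 or voom, with 0 at an unadjusted p below 0.05 in edgeR. All 4 endothelial markers fell on the TMM scaling, with log2 fold changes from -0.71 (Tie1) to -0.85 (Cdh5), and 18.1% of all tested genes fell. Their size is near the 0.72 by which library totals alone moved the median of all genes up. Of the macrophage markers 0 of 4 passed in edgeR, DESeq2 or voom, and of the adipocyte markers 0 of 4. For both lists 0 were at an unadjusted p below 0.05 in edgeR. Of 4 fibroblast markers 0 passed in edgeR and voom and 1 in DESeq2, with 1 at an unadjusted p below 0.05 in edgeR. Among the 4 markers of Schwann cells, edgeR called 1 higher and 0 lower, with 3 at an unadjusted p below 0.05, and DESeq2 and voom each called 1 higher and 1 lower.

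Pygb remained a small part of the phosphorylase transcripts. Of the summed Pygm, Pygb and Pygl level per kilobase, Pygb made up 0.810%, 0.526% and 0.495% in 113Q mice and 0.0684%, 0.101% and 0.119% in WT mice. Pygm made up 99.0% to 99.4% in 113Q and 99.8% to 99.9% in WT. The count ratio within a library does not depend on any scaling factor. There were 1.11, 0.720 and 0.678 counts of Pygb for each 100 of Pygm in 113Q libraries, and 0.0931, 0.137 and 0.161 in WT libraries. The ratio was 6.42 times higher in 113Q, and the groups did not overlap (exact two-sided permutation test, p = 0.1, the smallest that 3 against 3 mice can give; 0.12 adjusted over 6 ratios).

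The bases upstream of Pygm and Pygb are shown because these isoforms moved in opposite directions. They come from RefSeq on GRCm38.p6, the assembly of mm10, for Pygm at chr19:6384158-6384398 and for Pygb at chr2:150786546-150786734, both on the plus strand. Each runs 5′ to 3′ and stops before the first annotated transcribed base, and capitals mark an E-box match (CANNTG), a motif bound by myogenic factors.
Pygm: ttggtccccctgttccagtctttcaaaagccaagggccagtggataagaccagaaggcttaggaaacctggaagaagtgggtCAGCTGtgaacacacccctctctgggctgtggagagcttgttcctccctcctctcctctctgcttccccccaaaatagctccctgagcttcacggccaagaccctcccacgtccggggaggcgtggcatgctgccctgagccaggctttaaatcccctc
Pygb: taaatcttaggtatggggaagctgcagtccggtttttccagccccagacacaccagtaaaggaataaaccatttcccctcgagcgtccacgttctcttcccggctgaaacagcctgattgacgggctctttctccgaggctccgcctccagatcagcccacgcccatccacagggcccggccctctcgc
The searched window was the 250 bases before the RefSeq start, on both strands, for 7 motifs. They were the E-box, the MEF2 site, the MCAT element (CATTCC), the core of an androgen response element (AGAACA), the GC box (GGGCGG), the TATA box (TATAAA) and the element of estrogen-related receptors (TCAAGGTCA). Pygm had 2 E-boxes, at 168 to 163 bases and at 8 to 3 bases before the RefSeq start. The second is outside the stretch printed, since it lies inside the gene as GENCODE annotates it. Pygb had no match to any of the 7. An E-box was found in the windows of 7 of the 9 genes and in 66.2% of the 32851 promoter windows of the genome.

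Of the genes of synthesis, Gys1 (chr7:45434844-45456619, plus strand), the muscle glycogen synthase, fell. It was at 367, 507 and 444 CPM in 113Q mice and at 840, 850 and 774 CPM in WT mice, with no overlap and the lowest value in 113Q mouse 1. The log2 fold change was -0.90 ± 0.12 (SE; edgeR adjusted p = 0.000926), 1.87 times lower in 113Q, and it did not pass with library totals alone (-0.18, edgeR adjusted p = 0.171). Gyg (chr3:20122084-20155317, minus strand), glycogenin, was at 273, 258 and 247 CPM in 113Q mice and at 378, 360 and 345 CPM in WT mice. The mice of each group lay close together, with coefficients of variation of 4.94% in 113Q and 4.47% in WT, and the groups did not overlap. Its log2 fold change was -0.48 ± 0.08 (SE; edgeR adjusted p = 0.00262), but 0.24 with library totals alone, where it passed as higher (edgeR adjusted p = 0.0311). It lost the call in the libraries with Epcam under 1 CPM (-0.41, edgeR adjusted p = 0.09). Gbe1 (chr16:70313949-70569716, plus strand), the branching enzyme, was at 103, 85.2 and 95.5 CPM in 113Q mice and at 101, 98.7 and 110 CPM in WT mice. The groups overlapped, and the log2 fold change of -0.13 ± 0.09 (SE) did not pass (edgeR adjusted p = 0.331), whereas it was 0.59 with library totals alone (edgeR adjusted p = 0.000987).

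Ratios within a library compare these transcripts without any scaling factor. Gys1 had 8.81, 9.91 and 8.61 counts for each 100 of Pygm in 113Q libraries, against 6.94, 6.04 and 6.38 in WT libraries, a ratio 1.41 times higher in 113Q. Gbe1 had 28.1, 16.8 and 21.5 counts for each 100 of Gys1 in 113Q libraries and 12.1, 11.6 and 14.2 in WT libraries, 1.72 times higher in 113Q. Neither ratio overlapped between the groups (exact two-sided permutation test, p = 0.1 each, the smallest possible; 0.12 adjusted over 6 ratios). In the libraries with Epcam under 1 CPM the log2 difference of the Gbe1 to Gys1 ratio was 1.10, against 0.78 in all libraries. Gys2, the liver synthase, had between 0 and 3 counts in every library, at or under the floor of 3 counts, and was not tested.

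**Figure D2:**
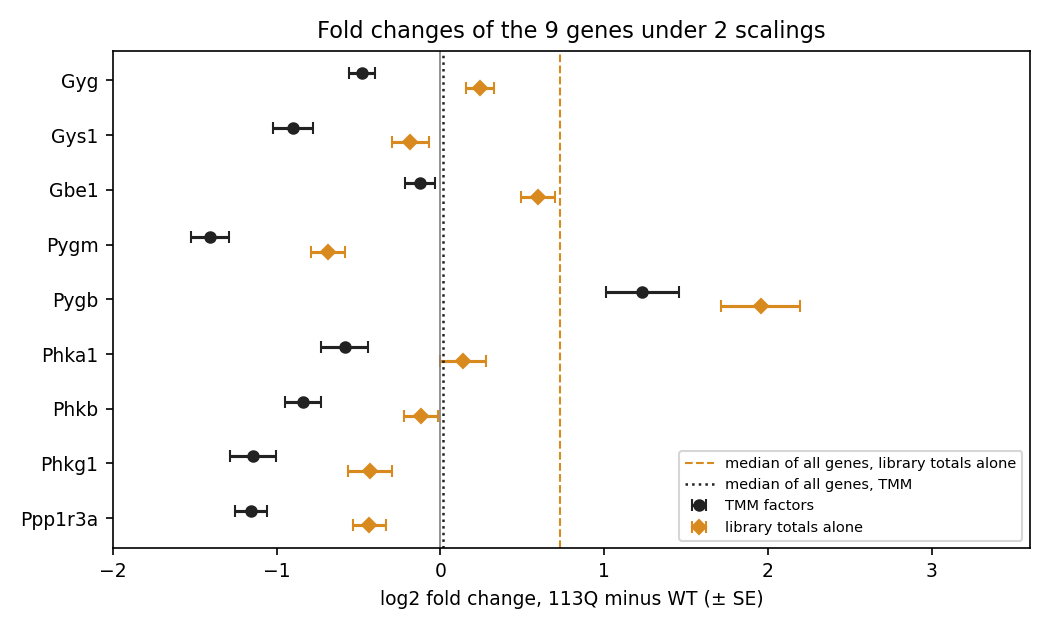
Log2 fold change of each gene, 113Q minus WT, with its SE (x axis), with TMM factors (black circles) and with library totals alone (orange diamonds); vertical lines mark 0 and the median of all tested genes under each scaling. Pygb lies right of both medians, Gbe1 lies near each median (-0.13 against 0.01, and 0.59 against 0.73), and the other 7 lie left of the median of their own scaling, while Gyg and Phka1 change sign and lie right of 0 with library totals alone.

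Phkg1, Phkb and Phka1 of phosphorylase kinase fell on the TMM scaling, while Phka1 had a positive fold change with library totals alone. Phkg1 (chr5:129863421-129898549, minus strand), the catalytic gamma subunit of muscle, was at 200, 297 and 232 CPM in 113Q mice and at 537, 516 and 559 CPM in WT mice. No 113Q value reached a WT value, and 113Q mouse 2 was the highest of its group. Its log2 fold change was -1.15 ± 0.14 (SE; edgeR adjusted p = 0.000592), 2.21 times lower in 113Q. Phkb (chr8:85840959-86061376, plus strand), the regulatory beta subunit, was at 433, 464 and 412 CPM in 113Q mice and at 734, 895 and 712 CPM in WT mice, a log2 fold change of -0.84 ± 0.11 (SE; edgeR adjusted p = 0.000742) that did not pass with library totals alone (-0.12, edgeR adjusted p = 0.342). Phka1 (chrX:102513975-102644246, minus strand), the muscle alpha subunit, was at 257, 242 and 237 CPM in 113Q mice and at 296, 447 and 361 CPM in WT mice. The WT mice were spread more widely than the 113Q mice, with a coefficient of variation of 4.31% in 113Q and 20.7% in WT. Its log2 fold change of -0.58 ± 0.14 (SE; edgeR adjusted p = 0.0139) turned to 0.14 with library totals alone, where it did not pass. The call was lost without 113Q mouse 2 (-0.57, edgeR adjusted p = 0.0519), without 113Q mouse 3 (-0.55, edgeR adjusted p = 0.0563) and in the libraries with Epcam under 1 CPM (-0.35, edgeR adjusted p = 0.192).

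The forms of these subunits named for liver did not pass the test. Phka2 was at 27.9, 26.8 and 27.3 CPM in 113Q mice and at 25.4, 24.9 and 28.1 CPM in WT mice, and Phkg2 at 12.7, 12.2 and 12.4 CPM in 113Q mice and at 12.9, 10.6 and 10.1 CPM in WT mice. Phka2 had a log2 fold change of 0.06 ± 0.09 (SE) and Phkg2 of 0.16 ± 0.12 (SE), with edgeR adjusted p of 0.611 and 0.359. For both genes the 113Q and WT mice overlapped. Within a library, there were 1569, 2431 and 1866 counts of Phkg1 for each 100 of Phkg2 in 113Q and 4170, 4881 and 5552 in WT, a ratio 2.51 times lower in 113Q. The Phka1 to Phka2 ratio was 923, 902 and 867 per 100 in 113Q and 1163, 1792 and 1283 per 100 in WT, 1.55 times lower in 113Q. These 2 ratios did not overlap between the groups (exact two-sided permutation test, p = 0.1 each, the smallest possible; 0.12 adjusted over 6 ratios). Between the beta and gamma subunits, the Phkb to Phkg1 ratio was 217, 156 and 178 per 100 in 113Q and 137, 174 and 127 per 100 in WT. That ratio overlapped between the groups (exact permutation p = 0.2, adjusted 0.2), and its log2 difference was 0.33, but 0.72 in the libraries with Epcam under 1 CPM.

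**Figure D3:**
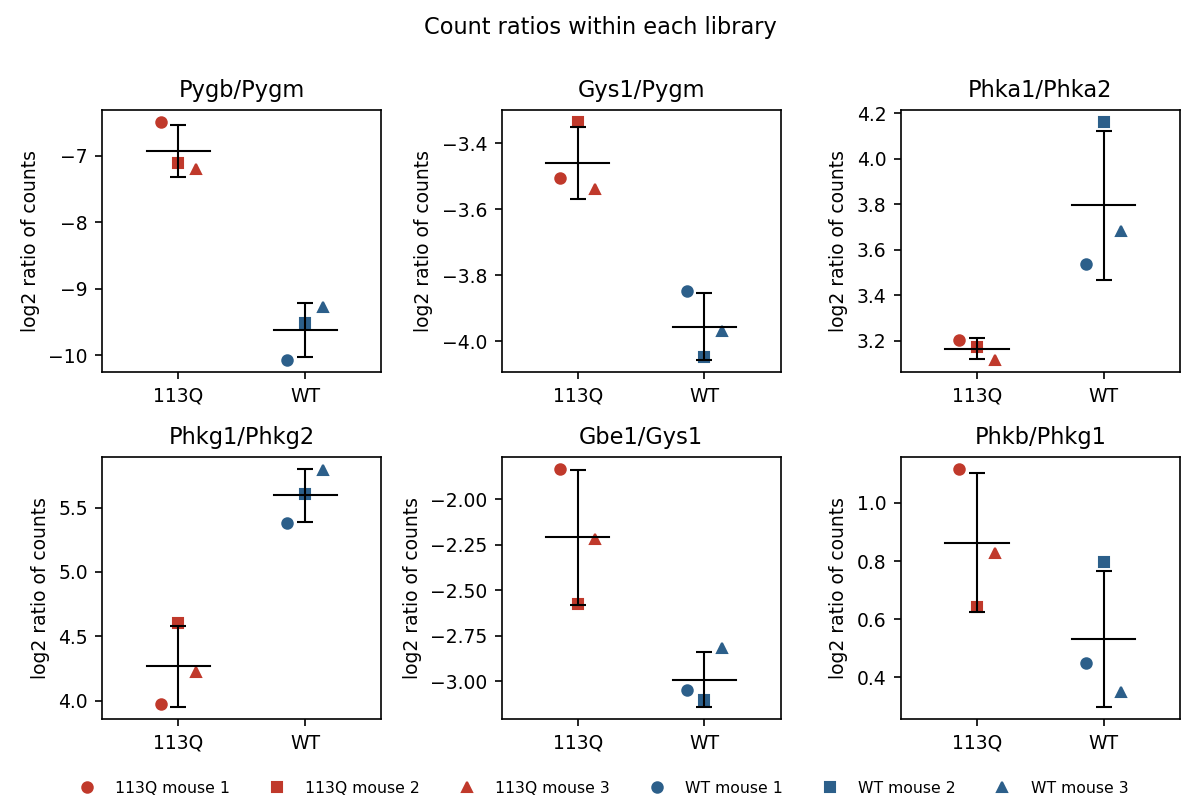
Log2 ratio of the estimated counts of 2 genes within each library (y axis, scale differs between panels), for 3 113Q and 3 WT mice, with the mean and SD of each group as black lines. The Pygb to Pygm ratio differs the most, by 2.68 on the log2 scale, and Phkb to Phkg1 is the panel where the groups overlap.

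Calm2 encodes calmodulin, the delta subunit of the kinase. It fell, with a log2 fold change of -0.72 ± 0.08 (SE; edgeR adjusted p = 0.000361), but 0.0054 with library totals alone. Calm3, another calmodulin gene, did not pass, with a log2 fold change of -0.09 (edgeR adjusted p = 0.514). Prkaca, a catalytic subunit of protein kinase A, did not pass (-0.07, edgeR adjusted p = 0.641). Prkaa2, the catalytic alpha subunit of the muscle AMP-activated kinase, and Prkag3, its glycogen-associated gamma subunit of fast muscle, fell on the TMM scaling, with log2 fold changes of -0.64 and -0.57, but were at 0.0773 and 0.15 with library totals alone and did not pass there. The Prkag3 call was lost without 113Q mouse 1 or 2 or WT mouse 1 or 3 (edgeR adjusted p 0.0808 to 0.0912). Its log2 fold change was -0.12 in the libraries with Epcam of at least 1 CPM (113Q mice 2 and 3, WT mouse 2). It was -0.92 in those under 1 CPM (113Q mouse 1, WT mice 1 and 3). Each of these fits leaves 1 mouse in 1 of the groups, so a single mouse can set the value.

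Ppp1r3a (chr6:14713977-14755274, minus strand), the targeting subunit of protein phosphatase 1 in striated muscle, was at 190, 182 and 158 CPM in 113Q mice and at 392.1, 416 and 374 CPM in WT mice. Each WT value was above every 113Q value by a wide margin. The log2 fold change was -1.16 ± 0.10 (SE; edgeR adjusted p = 8.79e-05), 2.23 times lower in 113Q, and was -0.43 with library totals alone, where it also passed. Ppp1r3c, another targeting subunit (protein targeting to glycogen), fell more: it was at 118, 115 and 122 CPM in 113Q mice and at 421, 676 and 501 CPM in WT mice. The 113Q mice lay close together, with an SD of 3.66 CPM, and the WT mice were spread widely, with an SD of 130.5 CPM. Its log2 fold change was -2.17 ± 0.17 (SE; edgeR adjusted p = 8.45e-05), 4.50 times lower in 113Q, and -1.45 with library totals alone.

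The window upstream of Ppp1r3a is shown because it was the 1 window of the 9 with a match to the MEF2 site, a motif bound by muscle transcription factors. It lies at chr6:14755275-14755524 on the minus strand of GRCm38.p6 (RefSeq), and capitals mark matches to the E-box, the MEF2 site and the TATA box.
Ppp1r3a: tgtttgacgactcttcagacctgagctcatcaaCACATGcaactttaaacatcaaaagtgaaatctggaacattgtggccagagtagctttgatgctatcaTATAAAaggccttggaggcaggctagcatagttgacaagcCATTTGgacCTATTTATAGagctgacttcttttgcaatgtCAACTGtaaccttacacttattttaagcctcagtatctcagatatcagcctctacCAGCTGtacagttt
The MEF2 match lies 100 to 91 bases before the start. A TATA box match on the other strand, at 97 to 92 bases, falls inside it, and a further TATA box match lies at 149 to 144 bases. A MEF2 match was found in 2.92% of the 32851 windows and a TATA box match in 12.4%. The GC box was found in the windows of 4 of the 9 genes (Gys1, Gyg, Phka1 and Phkb) and in 32.7% of all windows, and the androgen response core in that of Phkg1 and in 16.1% of all windows. The MCAT element and the element of estrogen-related receptors were in 0 of the 9 windows, and in 12.6% and 0.387% of all windows. A match of letters says nothing of whether a factor binds there.

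Other targeting subunits were far less abundant. Ppp1r3d, Ppp1r3e and Ppp1r3f rose, with log2 fold changes of 0.71, 0.66 and 0.91 (edgeR adjusted p = 0.0309, 0.0395 and 0.0131). Their mean levels were 6.41, 4.31 and 9.97 CPM in 113Q and 3.92, 2.71 and 5.34 CPM in WT. The calls of Ppp1r3d and Ppp1r3e were lost when any mouse but WT mouse 3 was left out (edgeR adjusted p up to 0.09 and 0.128). Exons of Ppp1r3f overlap other transcripts, among them Foxp3 on the other strand. Ppp1r3b, at 3.66, 3.48 and 1.57 CPM in 113Q mice and 1.18, 1.59 and 1.89 CPM in WT mice, overlapped between the groups and did not pass (edgeR adjusted p = 0.0824), but passed without 113Q mouse 3 (edgeR adjusted p = 0.02). Ppp1r3g had 2 counts or fewer in every library and was not tested. Of the catalytic subunits of the phosphatase, Ppp1ca fell (log2 fold change -0.58, edgeR adjusted p = 0.00101; 0.14 with library totals alone), and Ppp1cb and Ppp1cc did not pass in edgeR (-0.28 and -0.18, adjusted p = 0.0792 and 0.0865). Both passed as lower in DESeq2 (adjusted p = 0.0369 and 0.0316), and Ppp1cb also in voom (adjusted p = 0.0182) and in edgeR without WT mouse 2 (adjusted p = 0.0293). With library totals alone Ppp1cb and Ppp1cc were at 0.44 and 0.54 and passed as higher (edgeR adjusted p = 0.0113 and 0.000211). The inhibitors of the phosphatase, Ppp1r1a and Ppp1r2, fell by 1.16 and 0.40 on the log2 scale. With library totals alone Ppp1r1a did not pass (-0.44, edgeR adjusted p = 0.242) and Ppp1r2 passed as higher (0.33, edgeR adjusted p = 0.00769). The Ppp1r1a call was also lost without 113Q mouse 1 or 3 or WT mouse 1 or 3 (edgeR adjusted p 0.0665 to 0.085). In the libraries with Epcam of at least 1 CPM, which are 113Q mice 2 and 3 and WT mouse 2 alone, Ppp1r1a was at -0.47.

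Of the 30 other glycogen genes listed by function, 28 were tested, of which 11 fell, 6 rose and 11 did not pass on the TMM scaling, while with library totals alone 2 fell (Pgm2 and Ppp1r3c) and 18 rose. Over all 16960 tested genes, 18.1% fell and 16.5% rose on the TMM scaling, and with library totals alone 710 genes fell and 11015 rose. The median log2 fold change of the 28 genes was -0.14 on the TMM scaling, against 0.01 for all tested genes. The count of 6 that rose was 2 without 113Q mouse 1, 113Q mouse 2, 113Q mouse 3 or WT mouse 1, 3 without WT mouse 2, and 5 without WT mouse 3. In the libraries with Epcam under 1 CPM the calls of Pygl, Ppp1r3d, Ppp1r3e, Gaa, Ppp1r2 and Pgm2l1 were lost. Their log2 fold changes there were 0.91, 0.57, 0.57, 0.20, -0.34 and -0.40. In the libraries with Epcam of at least 1 CPM the calls of Ppp1r3e, Ppp1r1a and Prkag3 were lost (log2 fold changes 0.67, -0.47 and -0.12). Each of these fits leaves 1 mouse in 1 of the groups. The gene the table lists as Pgm2, a phosphoglucomutase, was at 458, 595 and 550 CPM in 113Q mice and at 1692, 1723 and 1547 CPM in WT mice, a log2 fold change of -1.63 ± 0.12 (SE; edgeR adjusted p = 4.29e-05). RefSeq lists Pgm2 among the synonyms of Pgm1 and the reverse, so the symbol alone does not settle which of these loci it is, and Pgm1 as listed was near 4 CPM in both groups and did not pass. Ugp2, which makes the glucose donor of glycogen synthase, fell (log2 fold change -0.74 ± 0.10 SE, edgeR adjusted p = 0.000823) but did not pass with library totals alone (-0.02). Pgm2l1, of the phosphoglucomutase family, had a log2 fold change of -0.59 (edgeR adjusted p = 0.00585), and 0.14 with library totals alone.

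Stbd1 and Gaa rose. Stbd1, a starch-binding protein that anchors glycogen to membranes, was at 264, 194 and 245 CPM in 113Q mice and at 175, 127 and 170 CPM in WT mice. Gaa, the lysosomal acid alpha-glucosidase whose loss causes Pompe disease in humans, was at 263, 318 and 323 CPM in 113Q mice and at 236, 243 and 222 CPM in WT mice. Neither gene overlapped between the groups. The log2 fold changes were 0.58 ± 0.16 for Stbd1 and 0.37 ± 0.10 for Gaa (SE; edgeR adjusted p = 0.0225 and 0.0216), and 1.30 and 1.09 with library totals alone. The Stbd1 call was lost without 113Q mouse 1 (edgeR adjusted p = 0.076) or 113Q mouse 3 (0.0743), and the Gaa call without 113Q mouse 2 (0.0767), 113Q mouse 3 (0.0801), WT mouse 1 (0.0512) or WT mouse 3 (0.0805). Epm2a and Nhlrc1, which encode laforin and malin, the proteins of Lafora disease, did not pass (log2 fold changes -0.20 and 0.13, edgeR adjusted p = 0.236 and 0.44). Of the synthase kinases, Gsk3a fell (-0.52, edgeR adjusted p = 0.00292; 0.20 with library totals alone) and Gsk3b did not pass (0.21, edgeR adjusted p = 0.0818).

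**Figure D4:**
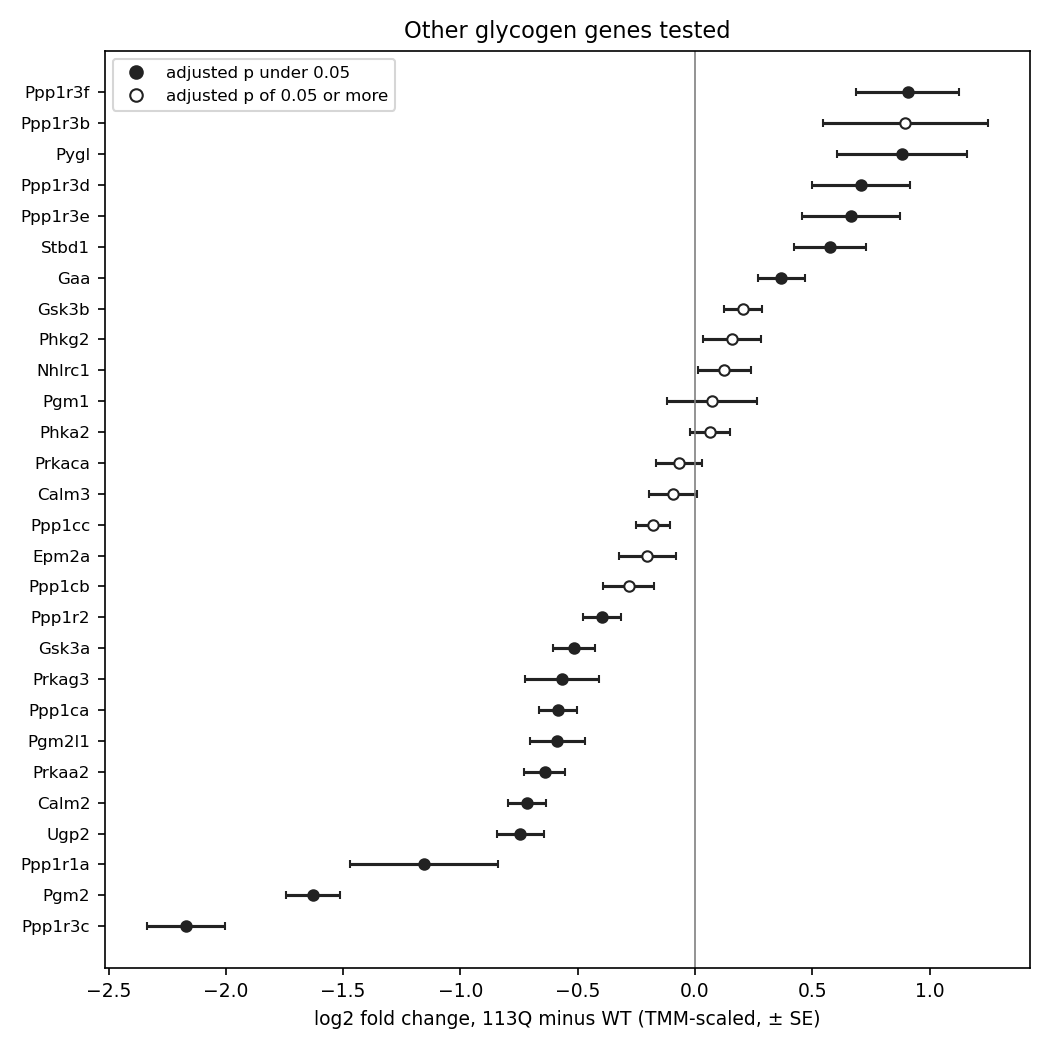
TMM-scaled log2 fold change, 113Q minus WT, with its SE (x axis) of the 28 other glycogen genes tested, filled where the adjusted p was below 0.05. Ppp1r3c (-2.17) and Pgm2 (-1.63) lie farthest left and Ppp1r3f (0.91) farthest right; with library totals alone the fold changes lie about 0.72 higher, so that several genes drawn left of 0 change sign.

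Set beside related groups on the TMM scaling, 11 of 18 glycolysis enzymes fell and 5 rose (Hk1, Pfkl, Pfkp, Pgam1 and Eno1) with a median log2 fold change of -0.84, and all 13 fast fibre genes fell with a median of -1.87. Of 9 slow fibre genes tested, 3 rose and 2 fell, with a median of 0.02. The 3 that rose were Tnnt1, Atp2a2 and Casq2. They averaged 4.03, 178 and 685 CPM in 113Q and 1.38, 77.8 and 344 CPM in WT. The 2 that fell, Myl3 and Mybpc1, were the most abundant of that list in WT. They averaged 292 and 2859 CPM in 113Q and 6224 and 4956 CPM in WT. The summed level of the slow fibre genes was 3964 to 4136 CPM in 113Q and 9822 to 12638 CPM in WT. That sum is mostly Myl3 and Mybpc1, and 5 of the 10 genes listed were above 1 CPM in every library. Over all tested genes, 18.1% fell and 16.5% rose. Aldoa, aldolase A, averaged 4233 CPM in 113Q and 24128 CPM in WT, a log2 fold change of -2.51, and Eno3, the muscle enolase, had one of -1.92. Pfkm, the muscle phosphofructokinase that is lacking in Tarui disease, averaged 2461 CPM in 113Q and 5229 CPM in WT, a log2 fold change of -1.09. Myh1, a fast myosin heavy chain, had a log2 fold change of -4.55 and Tnnt3, the fast troponin T, one of -1.75. Pygm, at -1.41, lay between Aldoa and Pfkm. No test of a difference between the lists was made.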

How the data were processed

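The deposited table gives 1 estimated count per gene and library, without depth scaling. Per the submitters' processing notes, the authors used FastQC 0.10.0, cutadapt, TopHat2 2.0.9, Bowtie2 2.1.0, Cufflinks and Cuffdiff 2.1.1 with the build mm10. No source used here names the gene annotation or the strand setting. Per the labels' protocols, muscle was flash frozen, RNA was isolated with Trizol, and the TruSeq mRNA-Seq kit was used. Among the 9 genes, exons of Gys1 and Phkg1 overlap Ruvbl2 and Sumf2 on the other strand. Of the other glycogen genes, those of Phkg2 (Ccdc189), Phka2 (Gm15243), Ppp1ca (Rad9a), Gsk3a, Ugp2, Ppp1r3f and, by its GENCODE symbol, Pgm1 (Itgb3bp) also overlap transcripts on the other strand. Without strand, reads of such stretches cannot be told apart.

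Counts were rounded (a fraction was present in 5.38% to 5.96% of a library's values), filtered with filterByExpr (minimum count 10) and scaled with TMM factors. 113Q was compared with WT by the robust quasi-likelihood F test of edgeR 4.0.16 in R 4.3.3, two-sided, adjusted by Benjamini-Hochberg over all 16960 tested genes, threshold 0.05. The SE was taken as log2 fold change over the root of F. The script was tested on simulated data. Ratios of 2 genes within a library were compared by an exact permutation test over the 6 mice. Levels are compared between genes per kilobase of the longest coding transcript of GENCODE M21, which may not be the authors' annotation; Pgm1 and Pgm2 were left out there.

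Some further genes of glycogen metabolism are not reported here. The 9 genes, the gene lists and the tests were chosen with earlier results of these data known. The genes named are the 9, the other glycogen genes of the list, and Epcam and Acta2. Of the related lists, the most abundant genes and Pfkm are named. The 5 glycolysis genes that rose, other than Pfkm and the most abundant, are named to account for their count, after their values were seen. So are the 3 slow fibre genes that rose. Alternatives were DESeq2 1.42.0, voom of limma 3.58.1 with quality weights, other scalings and filters, unrounded counts, leaving out each mouse, a replicate block and the libraries split by Epcam at 1 CPM. Chi-square per degree of freedom between mice of a group was 35 to 86.8, so no library was a copy of another.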

Additional observations from a re-analysis of the deposited data

How the results depend on the processing

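The 19 alternatives kept 6 or 7 of the 9 genes as lower and 1 as higher, except for 2 settings. With library totals alone, 3 of the 9 genes were higher and 3 lower, 18 and 2 of the other glycogen genes, and 11015 and 710 of all genes (11725 calls). In the libraries with Epcam under 1 CPM (1 113Q mouse and 2 WT mice), 5 of the 9 genes were called and 0 were higher, 11 of the other glycogen genes were called, 2 of them higher, and 3127 genes were called in all, 1300 higher and 1827 lower, from fewer samples. There the log2 difference of ratios was 3.18 for Pygb to Pygm, -1.62 for Phkg1 to Phkg2, 1.10 for Gbe1 to Gys1 and 0.72 for Phkb to Phkg1, with no test. With library totals alone the sign turned, by the construction of that scaling, for Gyg (0.24), Gbe1 (0.59), Phka1 (0.14), Pgm2l1 (0.14), Ppp1ca (0.14), Ppp1cb (0.44), Ppp1cc (0.54), Ppp1r2 (0.33), Gsk3a (0.20), Epm2a (0.52), Calm2 (0.0054), Calm3 (0.62), Prkaca (0.65), Prkaa2 (0.0773) and Prkag3 (0.15). Pgm1 turned to -0.17 in the libraries with Epcam under 1 CPM, and Calm3 and Prkaca turned to 0.10 and 0.12 in those with more; none of the 3 passed in either fit. Leaving out 1 mouse gave 7 to 8 calls among the 9 genes, 6 to 7 of them lower, 11 to 15 calls among the other glycogen genes, 2 to 5 of them higher and 9 to 12 lower, and 4325 to 5402 calls over all genes; Pgm1 ranged from -0.0327 to 0.18 and Prkaca from -0.15 to 0.0125.

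Deviations from the group mean gave mixed correlations across genes between mice with the same number (0.198, 0.236 and -0.274 for numbers 1, 2 and 3). The best WT match of 113Q mice 1, 2 and 3 was WT mouse 3, 2 and 2, in that order. The number was not taken as a pairing. With the replicate block 1 of the 9 genes was higher and 7 lower, as without it, and 2154 of all genes were higher and 2583 lower. With 3 mice a group, fold changes can be missed, so a gene that did not pass is not shown to be unchanged. In the simulated data the test recovered 22.7% of 1.5-fold, 60% of 2-fold and 76.9% of 4-fold changes. Far fewer genes were changed there: 113 of 16686 genes were called, 9 of them unchanged, against 5869 of 16960 in the data. Fewer calls make the adjusted threshold stricter, so these shares are not the recovery rates of the data. No ratio could reach a permutation p below 0.1.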

Other observations

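Ckm, the muscle creatine kinase, was at 11148 CPM in 113Q and 36568 CPM in WT on average (log2 fold change -1.71 ± 0.14 SE, edgeR adjusted p = 8.52e-05), and serves as another yardstick within a library. Against it, every one of the 9 glycogen genes had a higher count ratio in the 113Q libraries, with no overlap between the groups. The fold change of Ckm was below that of each of the 9, and the median log2 fold change of all tested genes was 0.01. A higher ratio to Ckm is therefore not particular to the glycogen genes, and its share over all genes was not counted. Pygm had 46.3, 41.1 and 43 counts for each 100 of Ckm in 113Q libraries and 30, 40.5 and 35 in WT libraries. Gys1 had 4.08, 4.07 and 3.71 in 113Q libraries and 2.09, 2.44 and 2.23 in WT libraries, and Gbe1 1.15, 0.684 and 0.796 in 113Q libraries and 0.252, 0.284 and 0.316 in WT libraries. The log2 differences of these ratios ran from 0.32 for Pygm to 3.00 for Pygb. Ckm itself fell, so these ratios show unequal change and not that a gene rose, and they were chosen after the values were seen and were not tested.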
